A study of Mus musculus with 12 samples.

Results

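The genes described here encode the 5 enzyme complexes of oxidative phosphorylation, taken from both genomes of the cell. They were chosen from the gene symbols of a mouse RNA-seq count table, by the naming patterns of the subunits of complexes I to V (Nduf followed by a, b, c, s or v and a digit, Sdha to Sdhd, Uqcr, Cyc1, Cox4 to Cox8, Atp5, and the mt-Nd, mt-Co, mt-Atp and mt-Cytb genes). Of 55335 rows, 111 matched a pattern; 5 with a symbol ending in -ps and a digit were left out, and 13 had fewer than 10 counts in all but at most 2 libraries. The 93 members comprised 80 nuclear genes (38 of complex I, 4 of complex II, 9 of complex III, 12 of complex IV and 17 of complex V) and 13 genes of mitochondrial DNA (7, 1, 3 and 2 for complexes I, III, IV and V). All 93 passed the filter on low counts and were tested.

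The libraries came from PYMT-R221A, a cell line derived from a mammary tumour of a mouse carrying the polyoma middle T transgene, so every result rests on 1 line. There were 4 groups of 3 libraries: control cells given neither the compound nor an siRNA by their label, cells treated with KCC-07 at 40 µM, cells transfected with a scramble siRNA, and cells transfected with siMBD2, an siRNA against Mbd2. The title of the series describes KCC-07 as a small-molecule inhibitor of the MBD2 pathway, and MBD2 is a protein that binds methylated CpG dinucleotides. Each library carried a batch tag naming biological replicate 1, 2 or 3, and the exposure time and any solvent given to control cells are not given in the sources used here.

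Complexes I to IV pass electrons from NADH and succinate through ubiquinone and cytochrome c to oxygen, and complexes I, III and IV pump protons out of the mitochondrial matrix as they do so. Complex V, the ATP synthase, lets the protons back in and uses their flow to make ATP. All of the subunits of complex II and most of the others are nuclear genes, translated in the cytosol and imported, whereas the catalytic cores of complexes I, III and IV and the proton channel of complex V include subunits encoded by mitochondrial DNA. That genome is transcribed from both strands as long precursors that are cut into separate messengers, so genes of 1 strand can share a precursor while their transcripts differ in stability.

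Sequences were examined first for 2 reasons, because copies and overlaps decide which gene a read is counted to, and because upstream windows are what nuclear members could share. Mitochondrial DNA has a stretch of near-identical copies in the nuclear genome, annotated as pseudogenes on chromosome 1 (GRCm38, minus strand, from 24611535 to 24616197). The first 60 bases of mt-Co2, which encodes a core subunit of complex IV (chrM:7013-7072), show the problem, since the pseudogene Gm28661 has the same 681 bases with 0 mismatches. The next lines give that stretch and the start of mt-Nd3 (chrM:9459-9518) with its copy Gm28438, whose 345 aligned bases hold 1 mismatch, T3C, written as the base of mt-Nd3, the position counted from 1 at its first base, and the base of the copy. The differing base is in capitals.
mt-Co2: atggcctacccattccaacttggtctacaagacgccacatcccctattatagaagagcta
mt-Nd3: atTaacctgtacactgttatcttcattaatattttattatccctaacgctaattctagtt
Gm28438: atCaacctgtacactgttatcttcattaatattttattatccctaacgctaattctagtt

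Neighbouring mitochondrial genes also share bases. The end of mt-Atp8 and the start of mt-Atp6, which encode the 2 mitochondrial subunits of complex V, overlap by 43 bases (chrM:7927-7969), shown in capitals with 20 bases on each side. mt-Nd4l and mt-Nd4 overlap by 7 bases (chrM:10167-10173), shown in the same way.
mt-Atp8 and mt-Atp6: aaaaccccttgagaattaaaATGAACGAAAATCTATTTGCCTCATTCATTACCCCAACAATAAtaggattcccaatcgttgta
mt-Nd4l and mt-Nd4: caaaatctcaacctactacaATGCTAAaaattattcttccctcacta

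The copies on chromosome 1 took a large part of the counts. Over the 12 libraries Gm28661 held 62.0% of the counts of mt-Co2 and itself together, Gm28437 held 53.7% with mt-Co3, and Gm10925 held 37.8% with mt-Atp6. Smaller shares went to Gm28438 (21.4% with mt-Nd3), Gm10222 (19.99% with mt-Nd4l) and Gm28439 (9.23% with mt-Nd4). Gm29216 held 0.354% with mt-Co1, of which it copies 492 bases with 6 mismatches. The share of Gm28661 ranged from 56.3% to 67.5% between libraries and that of Gm10925 from 32.7% to 42.3%, so counts of these sequences were divided between 2 rows, and changes were also fitted with the copies added.

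**Figure D1:**
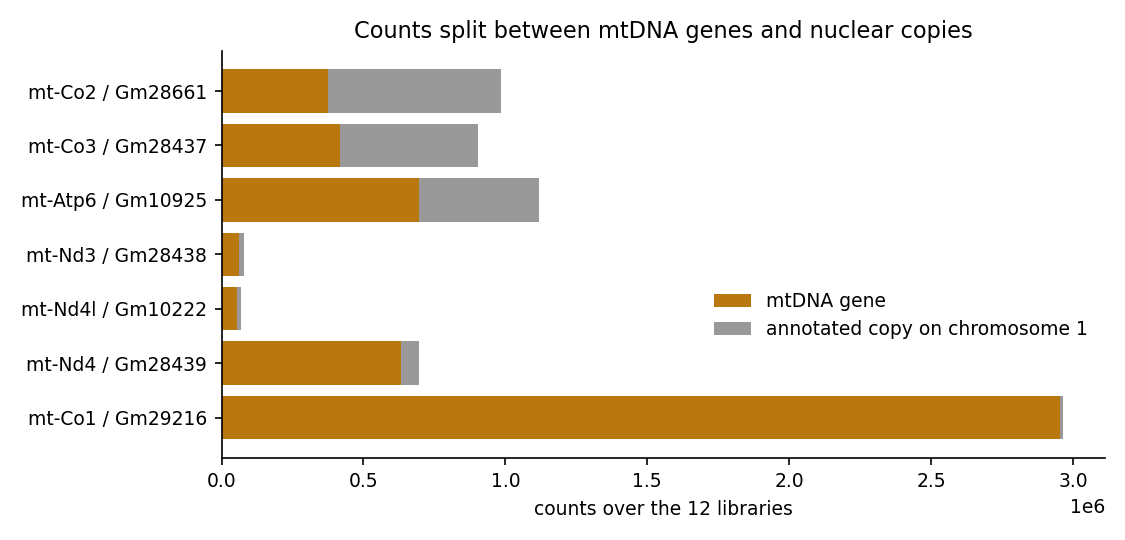
Raw counts summed over the 12 libraries (horizontal axis) for each gene of mitochondrial DNA that has an annotated copy on chromosome 1 (orange), stacked with the counts of that copy (grey). The copy holds the larger part for mt-Co2 (62.0%) and mt-Co3 (53.7%) and almost nothing for mt-Co1 (0.354%).

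Nuclear members have copies too, and 19 of the 80 had at least 1 near-identical annotated relative (at least 95% identity over at least 50% of the transcript). The copies of Atp5g2, one of 3 genes for the c subunit of the ATP synthase ring, held 356% of the counts of Atp5g2 itself, mostly on Gm10175. Those of Ndufs5 held 92.0%, those of Atp5l 57.3% and those of Ndufa12 37.5% of the member's counts. Cox6c2 (105 counts in all, against 45132 for Cox6c) and Ndufb4c (9980 counts, against 3863 for Ndufb4) are themselves typed as processed pseudogenes, and Ndufb1-ps is typed as a non-coding RNA from a bidirectional promoter. The exons of 29 members overlap a gene on the other strand, among them Ndufb11 (with Rbm10); whether the counting used strand is not given in the sources used here, so reads from both strands cannot be told apart.

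Upstream windows of 250 bases were found in RefSeq (GRCm38.p6) for 65 of the 80 nuclear members, 70 windows in all. They were searched on both strands for the core of the NRF1 site, CGCANGCG, and for CCGGAAG, the core of the site of ETS factors such as GABP; both factors are known for promoters of respiratory genes. The NRF1 core was in 28.6% of the members' windows, against 6.76% of all 32851 windows and 9.17% of those of protein-coding genes. The ETS core was in 17.1% of the members' windows, against 6.91% and 8.98%. Members with an NRF1 core included Sdha, Sdhd, Cox6a1, Atp5c1, Atp5h and Ndufb10. A match is a run of letters, not a bound site.

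The windows of the 3 nuclear members that later passed the test after KCC-07 are given 5′ to 3′ on the strand of the gene, ending at the base before the start that RefSeq gives, with the NRF1 core in capitals. The gene spans used for coordinates elsewhere come from GENCODE and begin further upstream for Ndufb10 and Atp5g1, so the ends of these windows, the NRF1 core of Ndufb10 included, lie inside those spans. Ndufb10 (chr17:24724424-24724673, minus strand) holds 1 NRF1 core, and none of the ETS core, whereas Ndufb11 (chrX:20617620-20617869, minus strand) and Atp5g1 (chr11:96075632-96075881, minus strand) hold neither core in these letters.
Ndufb10: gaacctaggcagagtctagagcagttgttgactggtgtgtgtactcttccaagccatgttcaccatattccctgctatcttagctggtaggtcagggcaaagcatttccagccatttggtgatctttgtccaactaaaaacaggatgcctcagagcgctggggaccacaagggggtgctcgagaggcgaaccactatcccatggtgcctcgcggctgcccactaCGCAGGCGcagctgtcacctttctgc
Ndufb11: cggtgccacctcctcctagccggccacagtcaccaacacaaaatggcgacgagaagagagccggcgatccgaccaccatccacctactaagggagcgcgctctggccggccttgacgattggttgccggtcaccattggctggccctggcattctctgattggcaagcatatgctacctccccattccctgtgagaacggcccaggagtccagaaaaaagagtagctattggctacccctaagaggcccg
Atp5g1: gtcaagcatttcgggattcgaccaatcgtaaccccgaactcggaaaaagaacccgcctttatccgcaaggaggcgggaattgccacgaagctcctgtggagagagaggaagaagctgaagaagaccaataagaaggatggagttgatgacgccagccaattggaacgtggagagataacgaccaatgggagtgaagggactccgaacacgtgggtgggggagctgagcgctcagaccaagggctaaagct

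Libraries held between 25831299 and 33956792 counts, and levels below are in CPM, counts relative to the library total after scaling by the trimmed mean of M values. All 8 luminal and all 5 basal mammary markers looked for had at least 10 counts in 3 libraries, whereas Ptprc, Cd3e, Adgre1, Cdh5, Adipoq and Plin1, which define leukocytes, endothelium and fat, were at 0 to 3 counts in every library. Not all mammary markers were high: the basal marker Acta2 was at 0.168 to 1.27 CPM and the luminal marker Krt19 at 0.473 to 3.31 CPM. Of 5 leukocyte, 3 endothelial, 4 fat and 5 striated muscle markers 1 each passed that floor (Cd68, Pecam1, Cidea and Tnnt2), and of 6 fibroblast markers 4 did. Luminal markers summed to 1466 to 1717 CPM in control and 1619 to 1777 CPM in KCC-07. Basal markers summed to 548 to 660 and 341 to 689 CPM, and endothelial markers to 2.66 to 4.155 and 1.15 to 6.58 CPM. The summed fibroblast markers were at 186 to 218 CPM in control and 102 to 160 CPM in KCC-07. Most of that sum was Pdgfra, at 69.5 to 160 CPM over the 12 libraries, and Col1a1, at 18.2 to 51.5 CPM. Col1a2, Col3a1 and Dcn reached at most 0.546, 0.469 and 0.145 CPM in any library. Muscle markers, nearly all Tnnt2, summed to 9.12 to 15.1 CPM in control and 16.6 to 31.4 CPM in KCC-07, and leukocyte markers to 0.732 to 0.956 and 1.33 to 7.36 CPM. The part of these markers in the differences between the groups was not tested. Mbd2, the target of the siRNA, was at 35.7, 34.7 and 30.6 CPM in the siMBD2 libraries and at 72.5 to 83.2 CPM in the scramble libraries, a log2 fold change of -1.20 (SE 0.09, adjusted p = 0.000197). Replicate 3 stood apart from replicates 1 and 2 in each group: the chi-square of the counts per degree of freedom was 82.9 and 124 for the pairs of controls with replicate 3, against 27.4 for control replicates 1 and 2. Results are therefore also given without batch 3 where that moves them.

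Respiratory transcripts were a small but visible part of each library. The 80 nuclear members made up 0.855% to 1.13% of all counts, and the 13 mitochondrial members 1.38% to 3.69%. Per kilobase of the longest principal transcript, the highest nuclear levels in control cells were those of 3 subunits of complex V: Atp5b, the catalytic beta subunit, at 540 ± 41.5 CPM per kilobase (mean ± SD, n = 3), Atp5h, of the peripheral stalk, at 494 ± 60.7, and Atp5g3, a c subunit, at 485 ± 51.4. Neighbours in that order differed by less than the larger of their SDs. Among the mitochondrial genes mt-Co1, the catalytic subunit of complex IV, was highest at 4218 ± 1755 CPM per kilobase, followed by mt-Atp6 at 2350 ± 661 and mt-Cytb, the core of complex III, at 1893 ± 863. The step from mt-Atp6 to mt-Cytb was smaller than either SD. These levels leave out the counts on the chromosome 1 copies. In control those copies averaged 1319 CPM for Gm28661 (mt-Co2), 1172 CPM for Gm28437 (mt-Co3) and 1037 CPM for Gm10925 (mt-Atp6). The places of mt-Co2, mt-Co3 and mt-Atp6 in this order therefore depend on how reads were assigned. mt-Nd6, encoded on the opposite strand from the other 12 genes, was lowest at 8.17 ± 2.87 CPM per kilobase. Of its 519 bases only those at chrM:13552-13565 overlap mt-Nd5 on the other strand. The strand setting of the counting is unknown, and the libraries were of polyA RNA. The part of these in its low level was not tested.

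Tissue-restricted isoforms of complex IV were near 0 in this mammary line. The muscle and heart forms Cox6a2, Cox7a1 and Cox8b summed to 1, 7 and 0 counts over the 12 libraries, the testis forms Cox6b2, Cox7b2 and Cox8c to 0, 3 and 0, and Ndufa4l2, a paralogue of Ndufa4 known to respond to hypoxia, to 6. Cox4i2, the alternative form of subunit 4, summed to 54 counts, against a control mean of 251 CPM for Cox4i1. The widely expressed partners Cox6a1, Cox6b1, Cox7a2 and Cox8a were at 244, 210, 86.3 and 230 CPM per kilobase in control cells. Ndufa4 was counted with complex I by its name, although the protein is now placed in complex IV. Ndufab1, the acyl carrier protein of complex I, has a symbol outside the patterns and was not a member.

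The levels by library set the frame for every comparison. The summed nuclear members were at 11054, 10265 and 8779 CPM in control replicates 1 to 3, at 8430, 9049 and 8469 in KCC-07, at 9207, 9169 and 9485 in scramble, and at 8937, 8883 and 9317 in siMBD2. Control replicates 1 and 2 were above each of the other 10 libraries, while control replicate 3 lay among them. For 51 of the 80 nuclear members, control replicates 1 and 2 were the 2 highest of the 12 libraries, and control replicate 3 was the lowest control for 76.

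The mitochondrial members had another order of libraries. Their sum was 13510, 14241 and 26658 CPM in the control libraries, 17304, 14610 and 35465 in KCC-07, 22232, 23254 and 29998 in scramble, and 21050, 20747 and 26440 in siMBD2. Replicate 3 was the highest of its group for 13 of 13 genes in control and in KCC-07, for 12 in scramble and for 11 in siMBD2. In bulk RNA, more cells with a transcript and more of it per cell cannot be told apart.

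**Figure D2:**
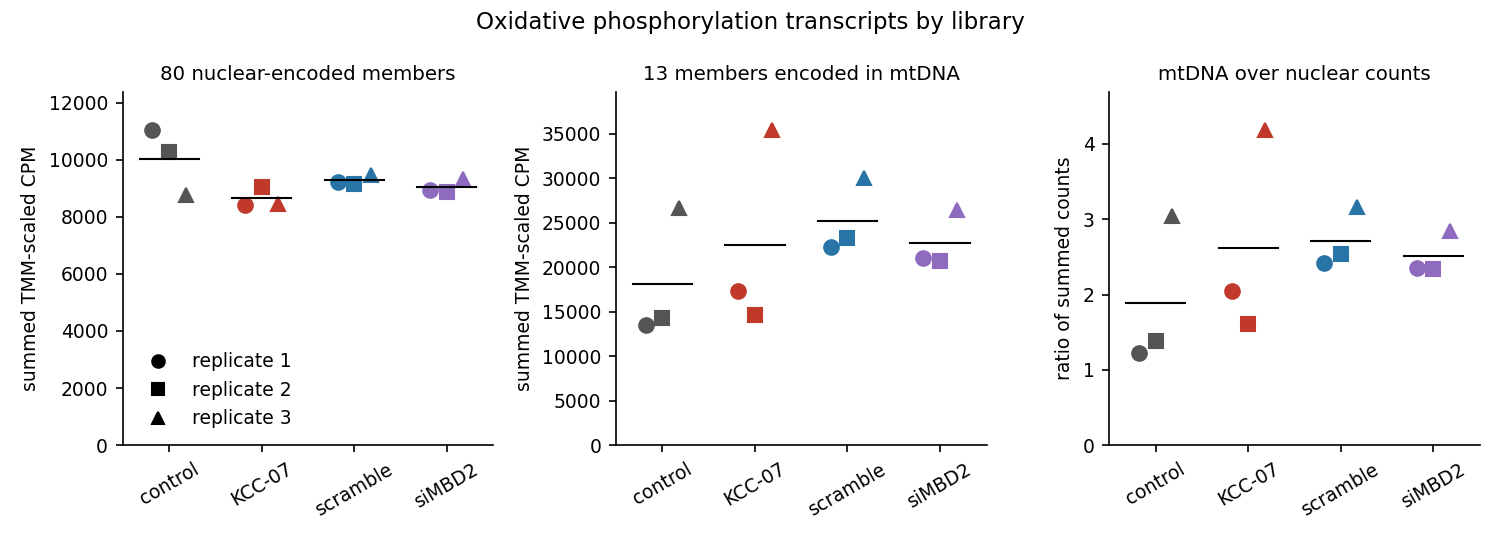
Summed CPM of the 80 nuclear members (left) and of the 13 mitochondrial members (middle), and the ratio of their summed counts (right), for each library; symbols mark replicates and lines the group means. Control replicates 1 and 2 sit above all other libraries on the left (11054 and 10265 CPM), and KCC-07 replicate 3 is the highest in the other panels (35465 CPM and a ratio of 4.19).

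The ratio of mitochondrial to nuclear counts was 1.22, 1.39 and 3.04 in control, 2.05, 1.61 and 4.19 in KCC-07, 2.41, 2.54 and 3.16 in scramble, and 2.36, 2.34 and 2.84 in siMBD2. Within batches 1, 2 and 3 the ratio in KCC-07 was 1.68, 1.16 and 1.38 times that in control. It was 0.975, 0.921 and 0.897 times the scramble value in siMBD2, and 1.98, 1.83 and 1.04 times the control value in scramble. The ranges of the control and KCC-07 groups overlapped, and so did those of scramble and siMBD2. Without mt-Co1 the KCC-07 ratios to control were 1.66, 1.19 and 1.10, so batch 3 moved most when that gene was left out.

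The first comparison asked what KCC-07 did to these transcripts relative to control cells. Most nuclear members had estimates modestly below 0, and 3 of the 80 passed the test, all lower: Ndufb10, Ndufb11 and Atp5g1. Among the 14935 genes tested, 2.08% were called lower, 3.58% higher and 5.65% in either direction (edgeR quasi-likelihood test, Benjamini-Hochberg adjusted p under 0.05). The log2 fold change was below 0 for 76 of 80, with a median of -0.23, whereas over all genes 48.2% were below 0 and the median was 0.02. The KCC-07 libraries lay entirely below the control libraries for 24 of 80, against 10.6% of all genes, and entirely above for 0, against 12.3%.

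The 3 called members were read in every library. Atp5g1 (ENSMUSG00000006057.15, GRCm38 chr11:96068852-96075670, minus strand), a gene for the c subunit that forms the rotating ring of ATP synthase, was at 116, 115 and 98.1 CPM in control and at 83.9, 85.7 and 84.0 in KCC-07. Each KCC-07 library was below each control, and the log2 fold change was -0.37 (SE 0.09, adjusted p = 0.0379). Its copy Gm10039 held 7.40% as many counts as the gene, and with the copies added the value was -0.40.

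Ndufb10 (ENSMUSG00000040048.14, chr17:24722060-24724478, minus strand), an accessory subunit of the membrane arm of complex I, was at 76.3, 65.9 and 62.6 CPM in control and at 51.3, 55.4 and 54.9 in KCC-07. The groups did not overlap, and the log2 fold change was -0.34 (SE 0.09, adjusted p = 0.0465). Ndufb11 (ENSMUSG00000031059.9, chrX:20615326-20617619, minus strand), an accessory subunit of the same arm, was at 100.1, 88.8 and 75.8 CPM in control and at 69.3, 70.7 and 65.7 in KCC-07. Again each KCC-07 library was below each control, at a log2 fold change of -0.36 (SE 0.10, adjusted p = 0.0479).

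These calls sat near the threshold. Leaving out 1 of the 12 libraries took the adjusted p of Atp5g1 between 0.0115 and 0.108, of Ndufb10 between 0.0172 and 0.121, and of Ndufb11 between 0.00837 and 0.123. The calls of Ndufb10 and Ndufb11 held only without control replicate 3, and that of Atp5g1 only without control replicate 3 or siMBD2 replicate 3. With the batch as a block, 24 nuclear members were lower (9% of all genes) and 1 mitochondrial member, mt-Co2, was higher (12.8%, and 21.8% in either direction). By DESeq2 19 nuclear members were lower, where 789 of the 14935 genes tested were lower (12.5% of all genes in either direction). Without the libraries of batch 3, 53 of 80 nuclear members were lower (10.5% of all genes, and 25.6% in either direction), 80 of 80 were below 0, and the median was -0.34. Without control replicate 3 alone, 41 of the 93 members were called (13.9% of all genes).

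The size of the shift differed by batch. The median log2 difference of the 80 nuclear members within a batch was -0.48 in batch 1, -0.19 in batch 2 and -0.04 in batch 3. In batch 3, the batch in which the control library was low, Cyc1, Uqcrq and Cox7a2l stood at 0.31, 0.54 and 0.49. The part of the library in these differences was not tested.

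**Figure D3:**
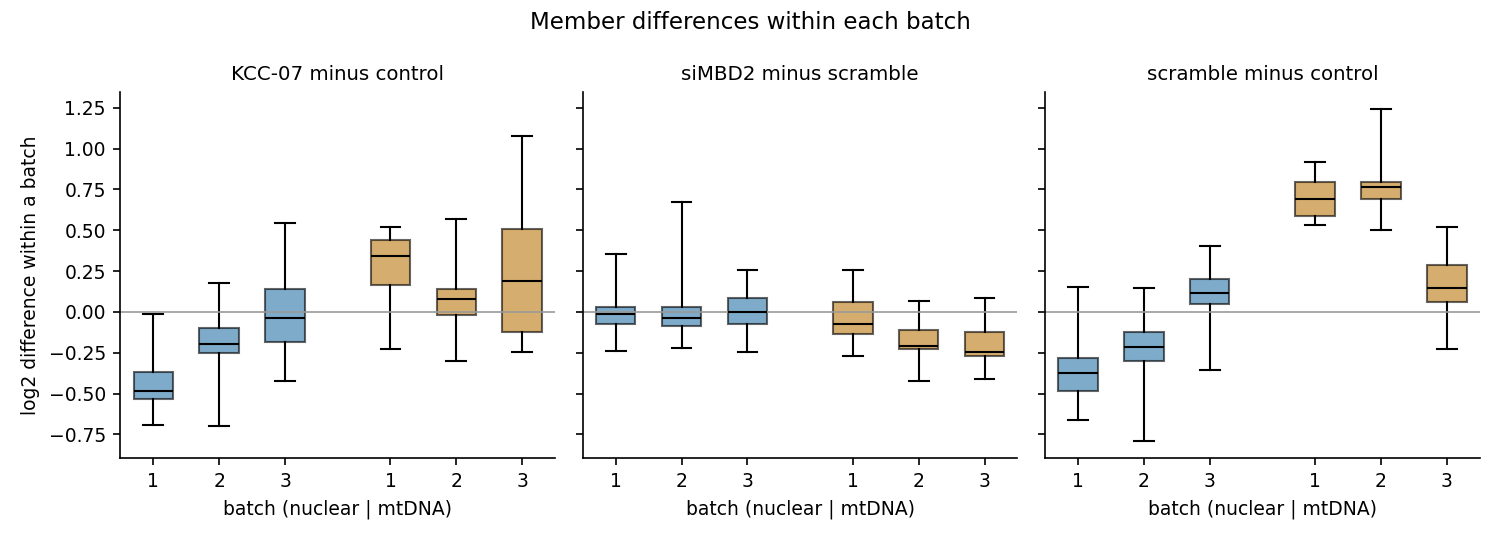
Log2 differences of the members within each batch for 3 comparisons, with nuclear members in blue and mitochondrial members in orange; boxes span the quartiles, whiskers the full range, and Cox6c2, at very low counts, is left out. Nuclear medians after KCC-07 run from -0.48 in batch 1 to -0.04 in batch 3, and those of siMBD2 against scramble lie near 0.

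Complex I is the largest of the 5 and takes electrons from NADH. Its 38 nuclear members summed to 2677 ± 337 CPM in control and 2278 ± 91.9 CPM in KCC-07 (SD, n = 3). Of them, 37 were below 0 with a median log2 fold change of -0.22, and 2 passed the test, where 2.08% of all genes were called lower. With the block 11 were lower, where 9% of all genes were. Among the core subunits of the peripheral arm, where NADH is oxidised and electrons pass to ubiquinone, Ndufs3 was at -0.40 (adjusted p = 0.0510), Ndufs7 at -0.37, Ndufs8 at -0.36 and Ndufv2 at -0.36. Ndufs1, the largest of them, with -0.13, and Ndufv1, which binds NADH, with -0.08, were nearer 0. The lowest value was that of Ndufb2 (-0.42, adjusted p = 0.0724) and the highest that of Ndufa1 (0.06), both accessory subunits.

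Complex II, succinate dehydrogenase, is the only one without a mitochondrial gene. Its 4 members summed to 538 ± 32.1 CPM in control and 470 ± 19.7 CPM in KCC-07, and none passed the test. Sdhd, a membrane anchor, was lowest at -0.29 (adjusted p = 0.0665, and 0.0366 with the block), and Sdhb, the iron-sulfur subunit, was highest at -0.16. The catalytic flavoprotein Sdha was also at -0.16.

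Complex III had 9 nuclear members, which summed to 993 ± 113 CPM in control and 885 ± 42.4 CPM in KCC-07. None passed the test, and 7 were below 0 with a median of -0.21. Uqcrb, a ubiquinone-binding subunit, was lowest at -0.37 (adjusted p = 0.0813, and 0.00935 with the block), followed by Uqcrh at -0.32. The Rieske protein Uqcrfs1 was at -0.21, and cytochrome c1, Cyc1, stood at 0.03, with 187 CPM in KCC-07 replicate 3 against 146 and 160 in the other KCC-07 libraries.

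Complex IV, cytochrome c oxidase, had 12 nuclear members, which summed to 1468 ± 234 CPM in control and 1346 ± 53.6 CPM in KCC-07. None passed the test, and the median of -0.14 was the nearest to 0 of the 5 complexes. Cox7b was at -0.35 (adjusted p = 0.0575, and 0.0139 with the block). The lowest estimate, -0.90 for Cox6c2, rested on 105 counts over all libraries and had an SE of 0.72. Cox7a2l, a factor of supercomplex assembly counted here by its name, was highest at 0.08. Of the widely expressed forms, Cox6a1, Cox7a2 and Cox8a were at -0.02 to -0.03. Cox6b1, which did not pass the test, averaged 210 ± 15.3 CPM per kilobase in control and 174 ± 22.9 in KCC-07. Its replicate 3 libraries were at 119.4 CPM in control and 118.9 CPM in KCC-07. Cox4i1 was at 328 ± 56.2 and 304 ± 18.8 CPM per kilobase.

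Complex V, the ATP synthase, had the lowest median of the 5, -0.30, and 17 of its 17 nuclear members were below 0. They summed to 4357 ± 441 CPM in control and 3671 ± 213 CPM in KCC-07. One, Atp5g1, passed the test, where 2.08% of all genes were called lower. With the block 9 were lower, where 9% of all genes were. The other c subunit genes were at -0.36 for Atp5g3 (adjusted p = 0.0507) and -0.30 for Atp5g2, whose copy Gm10175 was at -0.42. Of the accessory membrane subunits and the peripheral stalk, Atp5mpl was lowest at -0.39, with Atp5j2 at -0.38, Atp5h and Atp5k at -0.37, Atp5md at -0.30, Atp5f1 at -0.28, Atp5l at -0.27, Atp5o at -0.26 and Atp5j at -0.24. The catalytic head held Atp5a1 at -0.24 and Atp5b at -0.13. In the central stalk Atp5e was at -0.37, Atp5c1 at -0.29 and Atp5d, the highest of the 17, at -0.06. Whether complexes differed from each other was not tested.

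**Figure D4:**
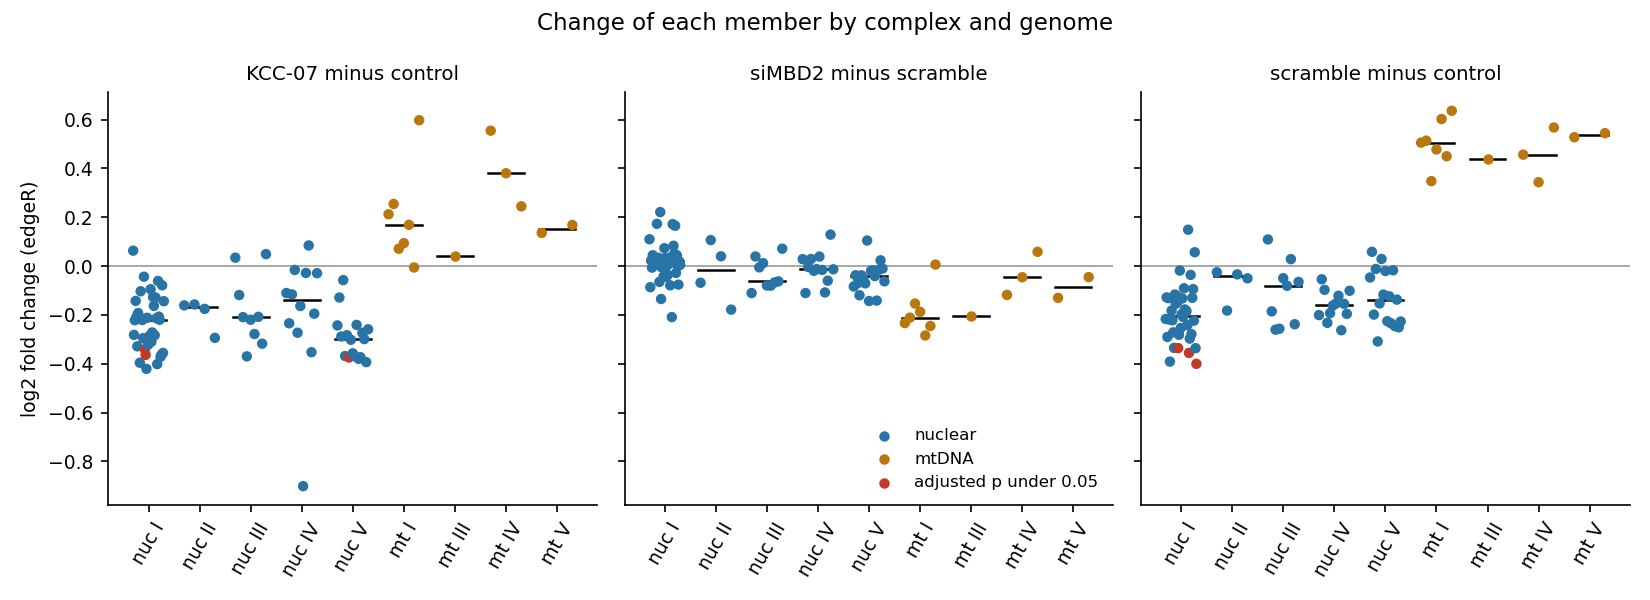
Log2 fold change of each of the 93 members for KCC-07 against control, siMBD2 against scramble and scramble against control, by genome (nuc, nuclear; mt, mitochondrial) and complex; lines are medians and red points have an adjusted p under 0.05. Nuclear medians after KCC-07 run from -0.30 in complex V to -0.14 in complex IV.

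None of the 13 mitochondrial members passed the test after KCC-07 (edgeR), nor did any by DESeq2 or at an unadjusted p under 0.05, where 25.1% of all genes stood. Their estimates were above 0 for 12 of 13, with a median of 0.17, and the KCC-07 and control libraries overlapped for each gene. The largest were mt-Nd6 at 0.60 (SE 0.51) and mt-Co1 at 0.55 (SE 0.42), and the lowest was mt-Nd5 at -0.01 (SE 0.33). With the batch as a block mt-Co2 was higher at 0.33 (adjusted p = 0.0329), from 613, 673 and 1335 CPM in control and 765, 746 and 1901 in KCC-07. Its copy Gm28661, which shares its sequence, was not called with the block, at 0.40 (adjusted p = 0.128). That copy was at 989, 1098 and 1871 CPM in control and at 1364, 961 and 3524 CPM in KCC-07, so it was lower in batch 2. Within batches 1, 2 and 3 the medians of the 13 members were 0.34, 0.08 and 0.19.

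The median depended on single libraries. Without KCC-07 replicate 3 the median of the 13 was -0.18, and without control replicate 3 it was 0.51. Without the libraries of batch 3, 4 members were higher (15.1% of all genes): mt-Nd2 at 0.34, mt-Nd4l at 0.51, mt-Cytb at 0.29 and mt-Co2 at 0.24.

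KCC-07 replicate 3 also differed in composition. mt-Co1 took 49.2% of its mitochondrial member counts, against 33.7% to 39.6% in the other 11 libraries. In that library mt-Co1 was at 17460 CPM, against 9638 CPM in control replicate 3, and mt-Nd6 was at 12.9 CPM against 5.83 CPM. mt-Cytb had 7.86% of the counts there, against 10.2% to 12.5% elsewhere, and mt-Nd4 had 5.82%, against 7.86% to 9.06%. Within batch 3 the log2 difference from control was thus 0.86 for mt-Co1 and 1.08 for mt-Nd6, but -0.24 for mt-Cytb, -0.12 for mt-Nd4 and -0.23 for mt-Nd5. The mitochondrial ribosomal RNAs made up 0.202% of all counts in KCC-07 replicate 3 and 0.0393% to 0.0977% in the other libraries, and their part in the result was not tested.

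**Figure D5:**
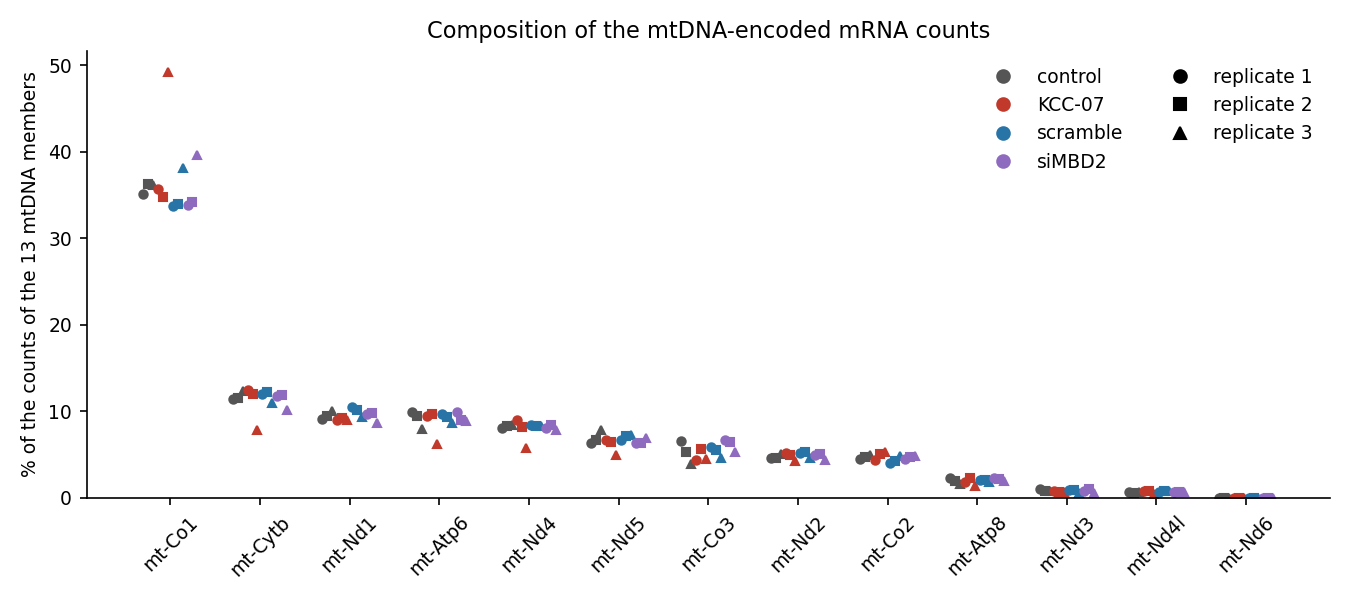
Share of each mitochondrial gene in the counts of the 13 mitochondrial members, by library; colours mark groups and symbols replicates. mt-Co1 takes 49.2% in KCC-07 replicate 3 and 33.7% to 39.6% in the other 11 libraries.

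The second comparison asked what the knockdown of Mbd2 did. None of the 93 members passed the test in siMBD2 against scramble by edgeR, by DESeq2 or with the batch as a block, and 1 had an unadjusted p under 0.05, against 5.26% of all genes. Few genes passed at all: 6 by edgeR, or 0.0402%, all lower, 0.569% by DESeq2 and 0.75% with the block. Without batch 3 none of the 93 passed, where 0.547% of all genes were higher and 0.534% lower. The nuclear members lay close to 0, with 43 of 80 below 0 (49% of all genes), a median of -0.0061 and a range from -0.21 to 0.22. The siMBD2 libraries were entirely below scramble for 15 of 80 (11.6% of all genes) and entirely above for 5 (10.3%).

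Ndufs1, the largest core subunit of complex I, had the lowest estimate. It was at 166, 168 and 170.1 CPM in scramble and at 143, 146 and 148 CPM in siMBD2, and the groups did not overlap. The log2 fold change was -0.21 (SE 0.07, adjusted p = 0.720). In a fit of those 6 libraries alone its adjusted p was 0.0481, where 1.26% of all genes passed. The highest estimate was 0.22 for Ndufb1-ps, at 15.2, 17.6 and 18.5 CPM in scramble and 19.6, 19.7 and 20.5 CPM in siMBD2.

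By complex the nuclear medians were 0.019 for complex I, -0.014 for complex II, -0.063 for complex III, -0.013 for complex IV and -0.041 for complex V. Complex II ran from -0.18 for Sdhd to 0.11 for Sdhb, complex III from -0.11 for Cyc1 to 0.07 for Uqcrq, and complex IV from -0.11 for Cox5a to 0.13 for Cox7c. In complex V 15 of 17 were below 0, from -0.14 for Atp5g3 to 0.10 for Atp5g2. The mitochondrial members were below 0 for 11 of 13, with a median of -0.15 and within-batch medians of -0.07, -0.21 and -0.25. Their range was -0.28 to 0.06, and none of the 13 had an unadjusted p under 0.05.

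The difference between the 2 effects was tested directly. No member passed in the effect of KCC-07 minus the effect of siMBD2 by edgeR or DESeq2, where 0.656% of all genes passed by edgeR (0.482% higher) and 4.13% by DESeq2, and 10 nuclear members had an unadjusted p under 0.05 (14.6% of all genes). The nuclear median was -0.22 with 76 of 80 below 0 (49.7% of all genes), and the mitochondrial median was 0.28 with 13 of 13 above 0. With the batch as a block 1 member passed, Ndufs3, a core subunit of the peripheral arm of complex I, where 2.24% of all genes were lower, 4.65% higher and 6.9% either. It was at -0.49 (adjusted p = 0.0371). Without batch 3, 12 nuclear members were lower (3.8% of all genes) and mt-Nd2 and mt-Nd4l were higher (6.77%).

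The third comparison set the transfected control against control cells, and it uses the same control libraries as the first. Here the nuclear estimates were mostly below 0 and the mitochondrial estimates above 0. Of 80 nuclear members 3 passed the test, all lower and all of complex I, where 4.08% of all genes were called lower, 4.71% higher and 8.79% in either direction. The nuclear median was -0.18, with 74 of 80 below 0 (53.1% of all genes), and within batches it was -0.37, -0.21 and 0.12. The scramble libraries lay entirely below the control libraries for 8 of 80 (16.8% of all genes) and entirely above for 1 (16.4%).

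Ndufv3, a small accessory subunit beside the NADH-binding flavoprotein, was at 36.2, 32.9 and 34.2 CPM in control and at 25.04, 26.6 and 26.6 CPM in scramble, with no overlap (ENSMUSG00000024038.17, chr17:31520115-31531331, plus strand). Its log2 fold change was -0.40 (SE 0.10, adjusted p = 0.0264). Ndufb11 was at 68.3, 71.3 and 70.1 CPM in scramble, below each control, at -0.34 (SE 0.10, adjusted p = 0.0495).

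Leaving out 1 library took the adjusted p of Ndufv3 between 0.0149 and 0.119 and of Ndufb11 between 0.00536 and 0.162. The call of Ndufv3 was lost without control replicate 1 or 2, and without any 1 of the scramble replicates. The call of Ndufb11 held in only 2 of these fits, the one lacking control replicate 3 and the one lacking replicate 3 of KCC-07. Without control replicate 3, 35 members were called (20.4% of all genes), and without batch 3, 49 nuclear members were lower (19.6%) and 13 of 13 mitochondrial members higher (21.6%).

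All 13 mitochondrial members had estimates above 0 in scramble against control, from 0.34 to 0.64 with a median of 0.51, and none passed the edgeR test (3 at an unadjusted p under 0.05, against 27.2% of all genes, and 1, mt-Atp8, by DESeq2, against 15.4%). With the batch as a block 5 were higher (7.39% of all genes, with 6.42% lower and 13.8% in either direction): mt-Atp6, mt-Atp8, mt-Nd4, mt-Nd4l and mt-Nd5. mt-Atp8 was at 312, 282 and 443 CPM in control and at 470, 491 and 553 CPM in scramble, so each scramble library was above each control, as also for mt-Atp6 and mt-Co3 (16.4% of all genes). mt-Atp6 was at 1339, 1342 and 2120 CPM in control and at 2164, 2170 and 2588 CPM in scramble. Within batches the medians of the 13 were 0.69, 0.77 and 0.14, so batch 3 again showed the smallest difference.

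For 4 members called in either comparison the 2 sets of values stand side by side, with the control libraries in common. Ndufb11 was at -0.36 after KCC-07 and -0.34 in scramble. Atp5g1 was at -0.37 and 0.03, Ndufb10 at -0.34 and -0.15, and Ndufv3 at -0.14 and -0.40. mt-Co1 was at 0.55 and 0.46. The scramble libraries of Atp5g1, at 108, 109 and 119 CPM, lay within or above the range of the controls, and those of Ndufb10, at 61.5, 60.4 and 63.0 CPM, lay around the lowest control.

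Genes that build, regulate or feed the complexes were read from 6 lists. In KCC-07 against control, 2 of the 139 listed genes tested passed, where 5.65% of all genes did. Ppard, a lipid-activated nuclear receptor, was higher, at 82.8, 81.5 and 67.0 CPM in control and 119, 114 and 96.8 CPM in KCC-07 (log2 0.51, SE 0.13, adjusted p = 0.0400). Micos13, of the complex that shapes the cristae, was lower, at 35.7, 33.4 and 32.1 CPM in control and 26.1, 27.5 and 26.1 CPM in KCC-07 (log2 -0.34, SE 0.09, adjusted p = 0.0468). The libraries of the groups did not overlap for either gene.

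Among the 11 coactivators and transcription factors tested, 1 was higher (Ppard) and 0 lower, with a median of 0.12. Ppargc1a, the coactivator known as a master regulator of mitochondrial biogenesis, was at 6.24, 6.29 and 4.90 CPM in control and at 8.87, 12.2 and 28.3 CPM in KCC-07. Each KCC-07 library was above each control, KCC-07 replicate 3 by the most, and the log2 fold change was 1.50 (SE 0.40, adjusted p = 0.0512, and 0.0257 with the block). Its partner receptor Esrra was at 10.7, 25.4 and 29.4 CPM in control and 29.7, 33.5 and 46.9 CPM in KCC-07 (log2 0.75, adjusted p = 0.135, and 0.0142 with the block). Nrf1, whose core motif was counted in the promoters, stood at 50.4, 51.5 and 50.5 CPM in control and 45.2, 45.6 and 38.3 CPM in KCC-07 (log2 -0.24, adjusted p = 0.185, and 0.0464 with the block).

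The machinery of the mitochondrial genome was read next. Of 31 factors of mitochondrial DNA and RNA none passed, and the median was -0.14. Tfam, which packages mitochondrial DNA and starts its transcription, was at -0.14 (SE 0.11), and Polrmt, the mitochondrial RNA polymerase, at -0.21 (SE 0.13). The single-strand binding protein Ssbp1 was at -0.43 (adjusted p = 0.0712, and 0.0121 with the block). Of the 50 assembly factors none passed, with a median of -0.15, of 18 genes of electron carriers none, with a median of -0.12, and of 18 genes of the tricarboxylic acid cycle none, with a median of -0.13. Of 11 supercomplex, inhibitor and uncoupling genes Micos13 alone passed, with a median of -0.14. Over these lists 33 of 139 genes had an unadjusted p under 0.05, near the 25.1% of all genes, and fumarase, Fh1, was at -0.44 (adjusted p = 0.0628, and 0.00436 with the block).

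No listed gene passed in siMBD2 against scramble, and 1, Uqcc3, had an unadjusted p under 0.05. In scramble against control 7 of 139 passed, where 8.79% of all genes did. Higher were Pprc1, a relative of Ppargc1a, at 1.06 (adjusted p = 0.00457), Lrpprc, which stabilises mitochondrial messengers, at 0.41 (adjusted p = 0.00560), the mitochondrial helicase Twnk at 0.49 (adjusted p = 0.0304), Ogdh at 0.62 (adjusted p = 0.02002) and Dlst at 0.25 (adjusted p = 0.0351) of the 2-oxoglutarate dehydrogenase, and Cox11, a copper chaperone of complex IV, at 0.45 (adjusted p = 0.0395). Lower was Uqcc3, an assembly factor of complex III, at -0.59 (adjusted p = 0.0443). Lrpprc was at 146, 143 and 148 CPM in control and at 193, 190 and 197 CPM in scramble, with no overlap and little spread.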

How the data were processed

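Gene counts of 12 polyA RNA libraries (3 per group) were analysed as deposited; mm10 (GRCm38.p6), DRAGEN and DESeq2 1.44.0 are listed, without their roles, among the tools and builds in the notes on processing that came from the submitters, while the strand setting and the treatment of reads with several matches are not given in the sources used here. Raw counts, as deposited by the authors, were fitted with edgeR 4.0.16 in R 4.3.3 (filterByExpr with a minimum count of 10 and a minimum total of 15, TMM scaling, quasi-likelihood test, 1 mean per group over 12 libraries, 8 residual degrees of freedom). P-values were adjusted by Benjamini-Hochberg over 14935 genes, at a threshold of 0.05. The model was tested on simulated data. DESeq2 1.42.0 was an alternative. Library totals were 25831299 to 33956792 counts.

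The pairing comes from the batch tag. Deviations from the group means correlated at 0.35, 0.37 and 0.55 between control and KCC-07 libraries of 1 batch, at 0.25, 0.31 and 0.62 between scramble and siMBD2, and at 0.10, 0.03 and 0.18 between control and scramble. Replicates 1 and 2 correlated with each other across groups about as highly (control 1 with KCC-07 2 at 0.36, control 1 with scramble 2 at 0.16, scramble 2 with siMBD2 1 at 0.32). The values therefore set only replicate 3 apart between control and KCC-07 and between scramble and siMBD2. Between control and scramble, replicate 3 at 0.18 was little above the 0.16 of control 1 with scramble 2. The batches of that comparison thus rest on the tag alone. The library names number replicate 3 of control and KCC-07 as 4 and that of the siRNA groups as 3. P-values measure the spread between these biological replicates. Levels per length used GENCODE M21 principal transcripts, copies were found with blastn 2.17.0, and differences within a batch used log2 of CPM plus 0.5. Exact tests of 3 against 3 cannot go below p = 0.1 and were not used. Members and lists were chosen with earlier results of these data known. Any member could be named by role. Named in full were members called in a comparison, the lowest and highest estimates per complex, mitochondrial genes, paralogous isoforms and the 3 highest levels per length per genome. From the related lists these were genes that passed, up to 4 per list with the smallest adjusted p, and Tfam, Polrmt, Ppargc1a, Nrf1 and Esrra. Alternatives were other scalings and filters, the replicate block, 6 libraries alone, DESeq2, each library or batch 3 left out, and 2 added after seeing the data (copies added; a trend on length, GC and level removed). Values of 1 called member and 1 marker are not reported here.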

Additional observations from a re-analysis of the deposited data

How the results depend on the processing

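The nuclear medians after KCC-07 and in scramble against control, and that of the difference of effects, kept their sign under every alternative, and the counts of members called did not keep their size. For KCC-07 against control 3 members were called in the main analysis, where 5.65% of all genes were. Other scalings gave 5 with DESeq2 size factors and 1 with library totals only. Other filters gave 0 with no filter on low counts and 6 with at least 1 CPM in 3 libraries. The 6 libraries alone gave 0 (0.00688% of all genes), and DESeq2 gave 19 (12.5%). The replicate block gave 25 (21.8%), and the fit without batch 3 gave 57 (25.6%). With 1 library left out 0 to 41 were called, with 41 without control replicate 3 (13.9%). For scramble against control 3 were called (8.79% of all genes), against 0 with no filter, 5 by DESeq2 (15.4%) and 8 with the replicate block (13.8%). There were 62 without batch 3 (41.1%), and 0 to 35 with 1 library left out, with 35 without control replicate 3 (20.4%). For siMBD2 against scramble 0 were called (0.0402% of all genes), and 1 from the 6 libraries alone (1.26%). For the difference of effects 0 were called (0.656% of all genes). There was 1 with the replicate block (6.9%), 14 without batch 3 (10.6%) and 0 to 1 with 1 library left out. The cause of these moves was not tested.

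The nuclear median after KCC-07 was -0.23 and shrank to -0.11 with a trend on length, GC and level removed. The mitochondrial median after KCC-07 was 0.17 in the main analysis, 0.76 with that trend removed, and -0.18 to 0.51 with 1 library left out. That of the difference of effects was 0.28, 0.87 with the trend removed and -0.038 to 0.75 with 1 library left out. That of scramble against control was 0.51 and ran from 0.30 to 0.88 with 1 library left out. In siMBD2 against scramble it was -0.15, -0.059 with the trend removed, and -0.26 to -0.049 with 1 library left out; the nuclear median of -0.0061 was 0.023 with library totals, 0.014 with the trend removed and -0.045 to 0.013 with 1 library left out. With the copies added, each of the 93 members kept its call of the main analysis and the direction of any such call in all 4 comparisons. Depth limits Cox6c2 most, at 105 counts over all libraries.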
